A study of Mus musculus with 12 samples.

Results

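The gene group described here holds 10 genes of the brain endothelium and its barrier, of 29608 gene names on the array: Cldn5, Ocln, Tjp1, Cdh5, Pecam1, Vwf, Slc2a1, Abcb1a, Icam1 and Vcam1. Its members are the 13 distinct probes, of 39429 distinct non-control probes on the array, that carry one of these gene names, and all 13 were found. Gene expression was measured in the cortex of 12 female mice about 12 weeks old, sacrificed at diestrus, with 4 mice in each of 3 groups. MRL/lpr mice carry a loss-of-function mutation of Fas on the MRL background and develop a lupus-like disease. Fn14ko mice are MRL/lpr littermates that also lack Fn14, the receptor of the cytokine TWEAK encoded by Tnfrsf12a, and so share the Fas mutation (backcross generation 8); MRL/lpr and Fn14ko are called the lpr groups from here on. MRL/+ mice, labelled MRL/MpJ, have the MRL background without either change and came from a different supplier. Each array carried 2 mice of 1 group: replicate 1 or 3 was labelled with Cy3, and replicate 2 or 4, on the same array, with Cy5. Every group had its own slide, scanned at a single time, and the effects of slide, scan and group cannot be told apart. The tissue was whole cortex, in which fewer endothelial cells and less RNA per endothelial cell cannot be told apart.

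Endothelial cells of brain vessels are joined by tight junctions, which seal the gaps between neighbouring cells, so that most molecules cross only through selected carriers and are partly pumped back by efflux transporters. Cldn5, Ocln and Tjp1 encode junction proteins, Cdh5, Pecam1 and Vwf mark endothelial cells in general, and Slc2a1 and Abcb1a encode a glucose carrier and an efflux pump. Icam1 and Vcam1 encode adhesion molecules that inflamed endothelium displays to leukocytes. Of 7 endothelial markers (Cldn5, Cdh5, Pecam1, Flt1, Tie1, Esam and Ly6c1), each had a probe well above background in all 10 mice other than the 2 MRL/+ mice in Cy5.

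Signal is given as background-corrected intensity divided by the median of the channel, so that 1 is the median retained probe of that mouse, and levels are compared only within a probe. The share of non-control spots well above background was 56.6% to 70% in 10 mice, but 35% and 21.2% in MRL/+ replicates 2 and 4, the Cy5 mice of that group, where spots without a mouse target (negative controls) had median intensities of 209 and 202 against 27.4 to 85.2 in the other 10 mice. On the MRL/lpr slide, 849 spots of array 1 and 824 of array 2 were at least 8 times brighter in both mice than in both mice of the group's other array, against 1, 4, 13 and 0 spots on the remaining 4 arrays. To check the labels, Tnfrsf12a (A_51_P131408) had a signal of 0.675 ± 0.063 (SD, n = 4) in Fn14ko, 1.68 ± 0.25 in MRL/lpr and 1.13 ± 0.17 in MRL/+, and fell by 1.31 log2 in Fn14ko relative to MRL/lpr (adjusted p = 0.000524). The Fas probe (A_55_P2091676) had log2 fold changes of -0.81 ± 0.27 (MRL/lpr) and -0.90 ± 0.27 (Fn14ko) relative to MRL/+, with overlapping groups (adjusted p = 0.0476 and 0.0455).

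The filter on dim spots left 11 of the 13 probes to be tested, at least 1 for each of the 10 genes. An Ocln probe (A_55_P2055694) was under 2 times its local background in 1 mouse and a Vwf probe (A_55_P2169659) in 5 mice, and the latter was well above background in none of the 12. In MRL/lpr against MRL/+, 3 of the 11 member probes passed the limma threshold (adjusted p of 0.05), all higher in MRL/lpr: Abcb1a, Tjp1 and a Vcam1 probe. Among all 22419 tested probes 26% passed. In Fn14ko against MRL/+, 4 of 11 passed (Tjp1 and the same Vcam1 probe higher, Cdh5 and Ocln lower), against 15.7% of all probes. In MRL/lpr against Fn14ko, 1 of 11 passed, Ocln, against 13.1% of all probes. The 4 mice of one group did not overlap the 4 of the other for 3, 5 and 2 of the 11 member probes in these comparisons, against 23.7%, 16.7% and 25% of all probes. In the first and last comparisons the members passed at about the rate of all probes; in Fn14ko against MRL/+ 4 of 11 is above 15.7%, on few probes. Dividing by the 75th percentile instead of the median shifted every log2 fold change by -0.09, -0.18 and 0.09 in the 3 comparisons, and called 1000 probes higher and 3728 lower in Fn14ko against MRL/+, where the median called 1172 and 2350; no member call against MRL/+ changed sign. Both comparisons with MRL/+ use the same 4 control mice. Without the 2 Cy5 MRL/+ mice, 0 of 11 member probes passed against MRL/+ in either comparison, and the signs of every value that had passed were the same.

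**Figure D1:**
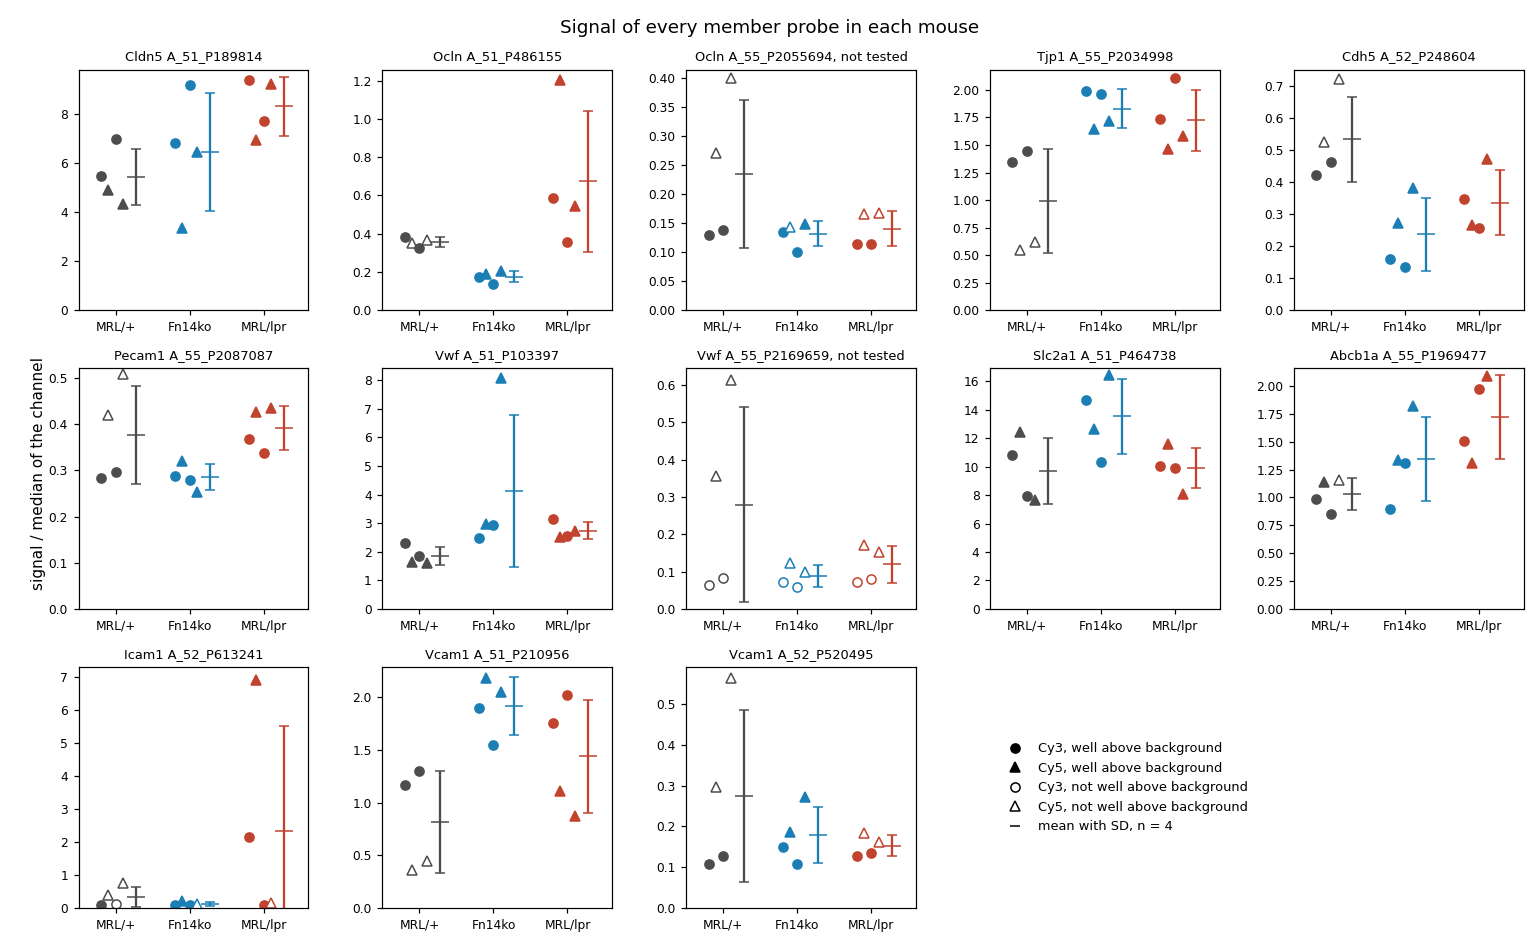
Signal of each of the 13 member probes (y axis, signal divided by the median of the channel, linear, from 0) in the 12 mice, by group; circles are Cy3 and triangles Cy5, open symbols are not well above background, and bars give the mean and SD of 4 mice (the lower Icam1 bar runs below 0). The MRL/+ Cy5 mice stand apart from the MRL/+ Cy3 mice for Tjp1 and Vcam1, and Icam1 is highest in MRL/lpr replicates 1 and 2.

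**Figure D2:**
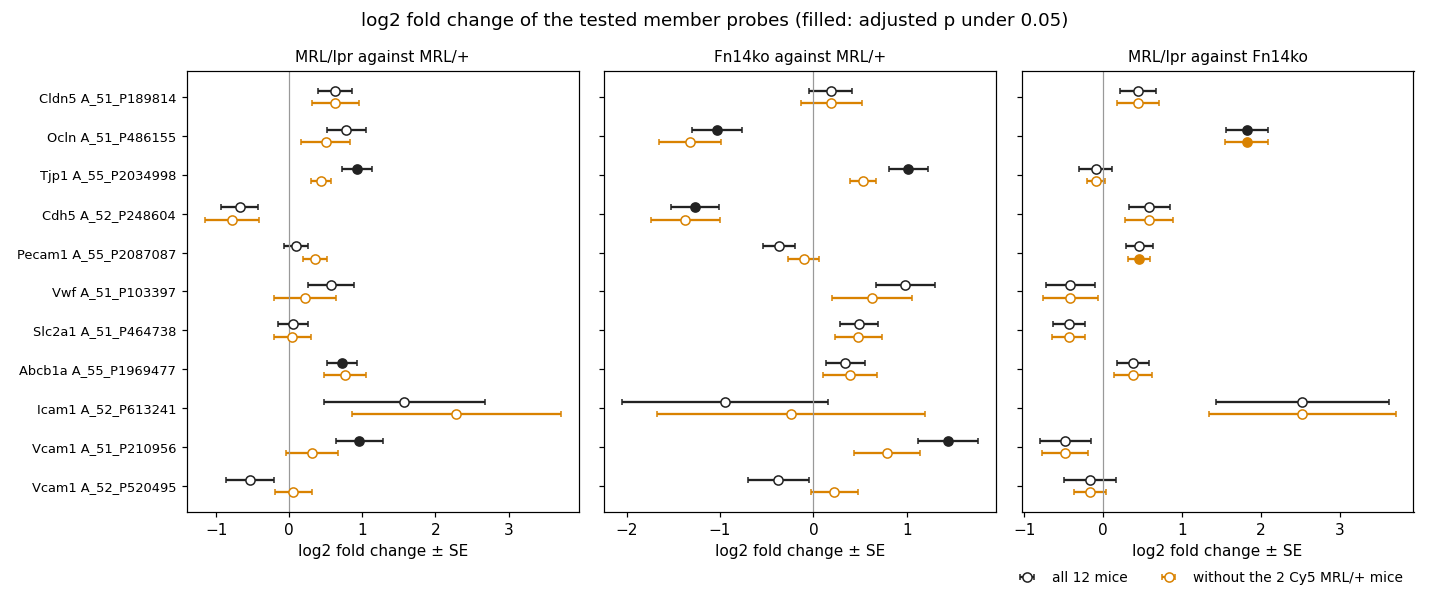
Log2 fold change with its SE (x axis) of the 11 tested member probes (y axis) in the 3 comparisons, in all 12 mice (black) and without the 2 Cy5 MRL/+ mice (orange); filled symbols have an adjusted p under 0.05. Leaving out these mice moves Tjp1 against MRL/+ from 0.92 to 0.43 and from 1.02 to 0.53, and Vcam1 A_51_P210956 from 0.96 to 0.31 and from 1.44 to 0.79.

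The first question was whether the tight junction genes differed between the groups. Cldn5, the main claudin of the brain endothelium, had signals of 9.40, 6.95, 7.72 and 9.24 in MRL/lpr replicates 1 to 4, of 6.85, 3.37, 9.21 and 6.45 in Fn14ko and of 5.48, 4.90, 6.99 and 4.35 in MRL/+. It was well above background in all 12 mice, and the groups overlapped: MRL/lpr replicate 2 lay just under the highest MRL/+ mouse. The log2 fold change of MRL/lpr against MRL/+ was 0.63 ± 0.23 (SE), with an adjusted p of 0.0627, and 0.0483 with the replicate block. Fn14ko differed from MRL/+ by 0.19 ± 0.23 (adjusted p = 0.574) and MRL/lpr from Fn14ko by 0.44 ± 0.23 (adjusted p = 0.222).

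Tjp1, which encodes the scaffold protein ZO-1 under the junction, had signals of 1.74, 1.46, 2.10 and 1.59 in MRL/lpr, of 1.99, 1.65, 1.96 and 1.71 in Fn14ko and of 1.35, 0.547, 1.45 and 0.620 in MRL/+. All MRL/lpr and Fn14ko mice were above all MRL/+ mice, and the MRL/+ mice fell into a higher Cy3 pair and a lower Cy5 pair. Tjp1 was higher in MRL/lpr than in MRL/+ by 0.92 ± 0.21 log2 (adjusted p = 0.00771) and in Fn14ko by 1.02 ± 0.21 (adjusted p = 0.0104). The lpr groups differed from each other by -0.09 ± 0.21 (adjusted p = 0.797). In the MRL/+ Cy5 mice the Tjp1 spot read 230 and 157, 1.10 and 0.777 times the negative control spots of the same channels, and it was not well above background there. Without these 2 mice the differences were 0.43 ± 0.14 and 0.53 ± 0.14 (adjusted p = 0.0596 and 0.0872). Within Cy3 they were 0.46 and 0.50, and within Cy5 1.39 and 1.53.

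**Figure D3:**
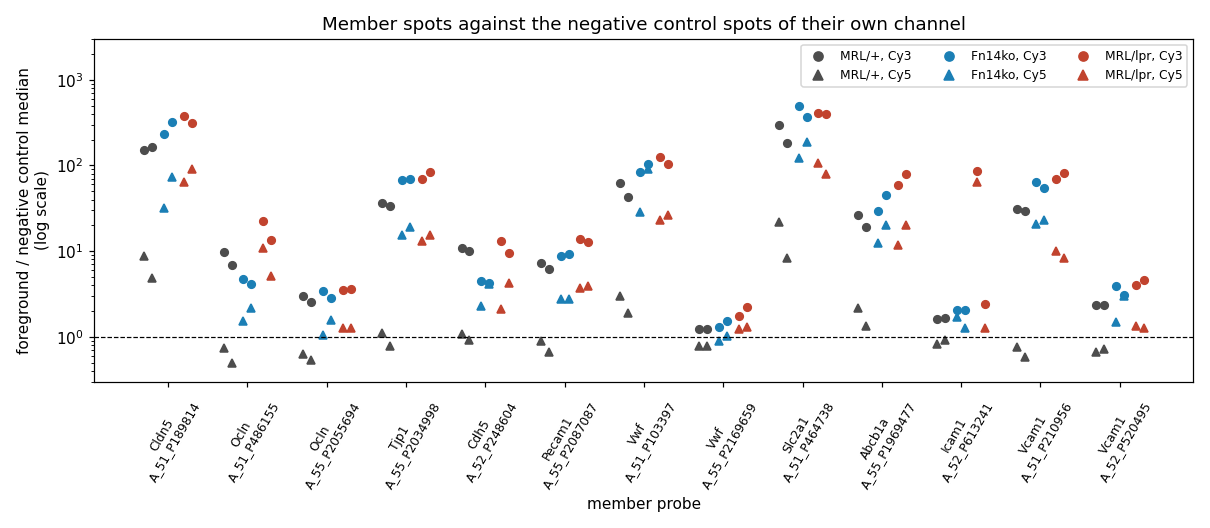
Foreground intensity of each member spot divided by the median of the negative control spots of the same channel (y axis, log scale; the dashed line is 1), for the 13 probes (x axis), 12 mice each; circles are Cy3 and triangles Cy5. In the MRL/+ Cy5 mice, Tjp1 (1.10 and 0.777), Vcam1 A_51_P210956 (0.760 and 0.575) and Ocln A_51_P486155 (0.747 and 0.496) lie at or under this line. So do Cdh5 (1.09 and 0.923), Pecam1 (0.897 and 0.660), Icam1 (0.830 and 0.918) and Vcam1 A_52_P520495 (0.662 and 0.725), and the untested Ocln and Vwf probes. Cldn5, Slc2a1, Abcb1a and Vwf A_51_P103397 lie above it in all 12 mice.

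Ocln encodes occludin, a tight junction protein that spans the membrane. Its tested probe (A_51_P486155) had signals of 0.588, 1.20, 0.357 and 0.546 in MRL/lpr, of 0.171, 0.191, 0.134 and 0.204 in Fn14ko and of 0.380, 0.350, 0.323 and 0.368 in MRL/+. The 4 Fn14ko mice were below all 8 other mice. Ocln was higher in MRL/lpr than in Fn14ko by 1.82 ± 0.27 log2 (adjusted p = 0.00149) and lower in Fn14ko than in MRL/+ by 1.04 (log2 fold change -1.04 ± 0.27, adjusted p = 0.0265). The difference of MRL/lpr from MRL/+ was 0.78 ± 0.27 (adjusted p = 0.0502, and 0.0383 with the replicate block).

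The spots around this Ocln spot moved with it on the MRL/lpr slide. The median intensity of the 23 gene spots within 2 rows and 2 columns was 639, 602, 337 and 239 in the MRL/lpr mice, against 128 to 197 in Fn14ko and 105 to 214 in MRL/+. The median log2 difference of these surrounding spots between MRL/lpr and Fn14ko was 1.82, as large as that of Ocln itself, and between Fn14ko and MRL/+ it was -0.53. Without MRL/lpr array 1 the Ocln difference from Fn14ko was 1.35 ± 0.22 (adjusted p = 0.00295), but array 2 had raised surroundings too. With local background left as deposited it was 1.48 ± 0.39 (adjusted p = 0.0502). The second Ocln probe (A_55_P2055694), elsewhere on the array, had signals of 0.114, 0.166, 0.114 and 0.168 in MRL/lpr and of 0.136, 0.143, 0.100 and 0.148 in Fn14ko, a mean log2 difference of 0.09 (exact permutation p = 0.771, 2-sided, n = 4 and 4). It was well above background in 2 of 4 MRL/lpr, 3 of 4 Fn14ko and 2 of 4 MRL/+ mice. The second probe thus did not show the difference of the first. It was dim, with Cy5 spots at 1.04 to 1.56 times the negative controls in these 2 groups, so it may miss a difference. The part of the bright area in the Ocln result was not tested.

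The Fn14ko and MRL/+ arrays had at most 13 spots each that were bright against the group's other array. This count cannot see a difference shared by both arrays of a group. In the MRL/+ Cy5 mice the tested Ocln spot read 0.747 and 0.496 times the negative controls, and was not well above background. In Fn14ko against MRL/+ the Ocln fold change kept its sign in all 23 alternatives (-1.36 to -0.46) and passed the threshold in 12. In Cy3 alone it was -1.21 ± 0.28 (adjusted p = 0.1). The call was lost when any of Fn14ko replicates 2, 3 and 4 or MRL/+ replicate 3 was left out. The second probe had a mean log2 difference of -0.69 with overlapping groups (exact permutation p = 0.257, 2-sided, n = 4 and 4). Within Cy3 the difference of the second probe was -0.20, and within Cy5 -1.18.

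**Figure D4:**
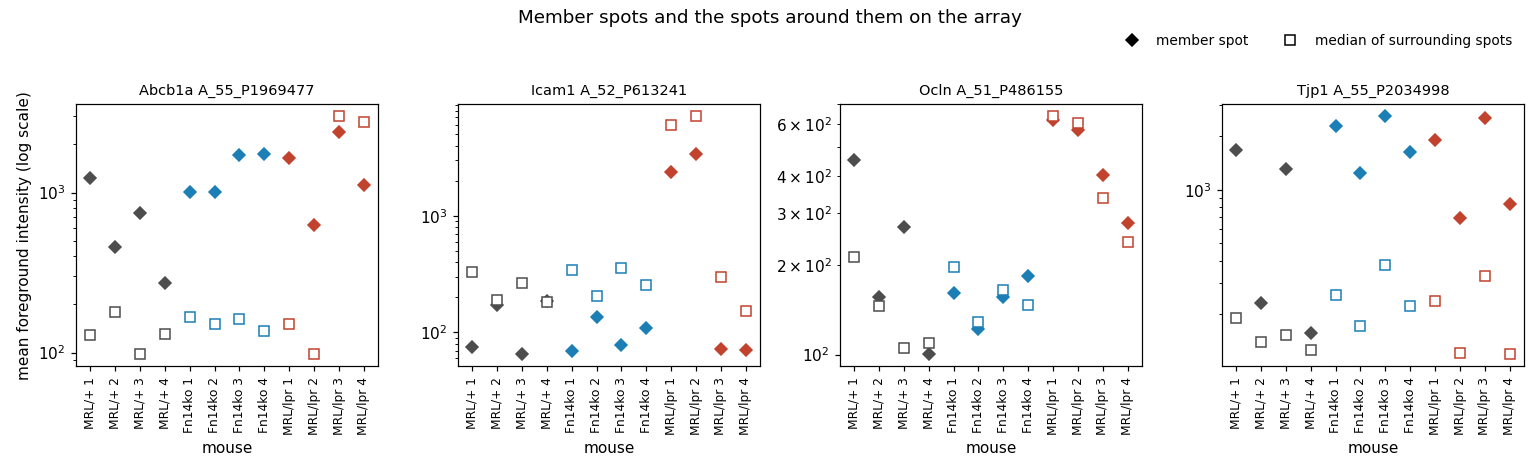
Foreground intensity (y axis, log scale, a separate range in each panel) of 4 member spots (diamonds) and the median of the gene spots within 2 rows and 2 columns of each (open squares) in the 12 mice (x axis); grey is MRL/+, blue Fn14ko and red MRL/lpr. The surroundings reach 3018 and 2761 around Abcb1a in MRL/lpr replicates 3 and 4 and 5980 and 7229 around Icam1 in replicates 1 and 2, and stay at 119 to 379 around Tjp1 in all mice.

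The second question was whether general endothelial genes differed. Cdh5 encodes VE-cadherin, the adhesion protein of endothelial adherens junctions. Its signals were 0.348, 0.265, 0.256 and 0.472 in MRL/lpr, 0.160, 0.271, 0.134 and 0.382 in Fn14ko and 0.423, 0.525, 0.460 and 0.720 in MRL/+. All Fn14ko mice were below all MRL/+ mice, while MRL/lpr overlapped both groups. Cdh5 was lower in Fn14ko than in MRL/+, with a log2 fold change of -1.26 ± 0.26 (adjusted p = 0.0107). It was also lower in the Cy3 mice alone, by -1.59 ± 0.21 (adjusted p = 0.0277), where all spots were well above background; of the 33 member values this was one of 2 that passed with 2 mice a group, beside Ocln between MRL/lpr and Fn14ko. In the MRL/+ Cy5 mice the Cdh5 spot read 1.09 and 0.923 times the negative control spots of the same channels, and was not well above background. The call held in 16 of 23 alternatives. Among those that lost it were the fits without MRL/+ replicate 3 (-1.24, adjusted p = 0.0758) and without the 2 Cy5 MRL/+ mice. MRL/lpr against MRL/+ was -0.68 ± 0.26 (adjusted p = 0.0703, and 0.0335 with the replicate block), and MRL/lpr against Fn14ko 0.58 ± 0.26 (adjusted p = 0.154).

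Pecam1 encodes an adhesion protein found at the contacts between endothelial cells. Its 60-base probe, shown because it separated the lpr groups in every mouse, reads coding sequence and lies on the minus strand of mm9 at chr11:106540864-106540923.
Pecam1 A_55_P2087087: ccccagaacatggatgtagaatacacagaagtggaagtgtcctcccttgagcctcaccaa
Its signals were 0.368, 0.426, 0.337 and 0.435 in MRL/lpr, 0.288, 0.321, 0.279 and 0.252 in Fn14ko and 0.284, 0.419, 0.296 and 0.507 in MRL/+. All MRL/lpr mice were above all Fn14ko mice (0.46 ± 0.17 log2, exact permutation p = 0.0286, 2-sided, n = 4 and 4, the smallest that this design allows), but the limma adjusted p was 0.1. Against MRL/+ the fold changes were 0.09 ± 0.17 in MRL/lpr and -0.37 ± 0.17 in Fn14ko (adjusted p = 0.711 and 0.143). In the MRL/+ Cy5 mice the Pecam1 spot read 0.897 and 0.660 times the negative controls, and was not well above background. Within Cy3 the differences from MRL/+ were 0.28 in MRL/lpr and -0.03 in Fn14ko, and within Cy5 -0.10 and -0.70. Cdh5 thus passed in 1 comparison and Pecam1 in 0, and the difference between the genes was not tested.

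Vwf encodes von Willebrand factor, a clotting protein stored in endothelial cells. Its tested probe (A_51_P103397) had signals of 3.16, 2.51, 2.57 and 2.73 in MRL/lpr, 2.47, 2.99, 2.95 and 8.08 in Fn14ko and 2.31, 1.65, 1.86 and 1.62 in MRL/+. All 8 mice of the lpr groups were above all 4 MRL/+ mice, and Fn14ko replicate 4 stood far above the other mice. The fold changes against MRL/+ were 0.57 ± 0.31 in MRL/lpr (adjusted p = 0.195) and 0.98 ± 0.31 in Fn14ko (adjusted p = 0.0535, and 0.0462 with the replicate block). The exact permutation p was 0.0286 in both (2-sided, n = 4 and 4). MRL/lpr differed from Fn14ko by -0.41 ± 0.31 (adjusted p = 0.411). The other Vwf probe (A_55_P2169659) was not well above background in any mouse and was not tested.

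The third question was whether the barrier's transporters differed. Slc2a1 encodes GLUT1, the glucose carrier of the barrier. Its signals were 10.1, 11.6, 9.92 and 8.09 in MRL/lpr, 14.7, 12.7, 10.3 and 16.4 in Fn14ko and 10.8, 12.4, 7.93 and 7.63 in MRL/+, well above background in all 12 mice. The groups overlapped in every comparison. Relative to MRL/+ the fold changes were 0.05 ± 0.20 in MRL/lpr and 0.49 ± 0.20 in Fn14ko, and the lpr groups differed by -0.44 ± 0.20 (adjusted p = 0.869, 0.106 and 0.171).

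Abcb1a encodes P-glycoprotein, which pumps drugs and other lipid-soluble molecules back into the blood. Its signals were 1.51, 1.31, 1.98 and 2.09 in MRL/lpr, 0.901, 1.34, 1.31 and 1.82 in Fn14ko and 0.991, 1.14, 0.851 and 1.15 in MRL/+. All MRL/lpr mice were above all MRL/+ mice, and Fn14ko overlapped both. Abcb1a was higher in MRL/lpr than in MRL/+ by 0.72 ± 0.21 log2 (adjusted p = 0.0247), with 0.34 ± 0.21 in Fn14ko (adjusted p = 0.241) and 0.38 ± 0.21 between the lpr groups (adjusted p = 0.245). On MRL/lpr array 2 the 23 surrounding spots had median intensities of 3018 and 2761, against 97.3 to 180 in the 10 other mice. Without array 2 the difference from MRL/+ was 0.45 ± 0.22 (adjusted p = 0.159), with both remaining MRL/lpr mice still above all MRL/+ mice. Without array 1 it was 0.99 ± 0.20 (adjusted p = 0.0079). The call was also lost without MRL/lpr replicate 1, 3 or 4 or MRL/+ replicate 3 (0.59 to 0.72), and the part of the bright area was not tested.

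The fourth question was whether endothelial adhesion molecules differed. Icam1 is a ligand of leukocyte integrins. Its probe is shown because its value turned on MRL/lpr array 1. The probe lies on the plus strand of mm9 at chr9:20832290-20832349 and reads coding sequence.
Icam1 A_52_P613241: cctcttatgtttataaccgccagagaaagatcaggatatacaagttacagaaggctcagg
Its signals were 2.16, 6.92, 0.083 and 0.161 in MRL/lpr, 0.0915, 0.206, 0.0764 and 0.127 in Fn14ko and 0.0842, 0.393, 0.102 and 0.751 in MRL/+. The 2 mice of MRL/lpr array 1 were the highest, and the groups overlapped in every comparison. Their spot read 2368 and 3371, against 64.8 to 185 in the other 10 mice, and the 20 surrounding spots had medians of 5980 and 7229 there against 154 to 361 elsewhere. The log2 fold change of MRL/lpr against Fn14ko was 2.52 ± 1.10 (adjusted p = 0.148), -0.01 ± 0.46 without array 1 (adjusted p = 0.996) and 5.06 ± 0.39 without array 2 (adjusted p = 5e-06). Against MRL/+ it was 1.58 ± 1.10 in MRL/lpr (adjusted p = 0.299), -0.96 ± 0.46 without array 1 (adjusted p = 0.175) and 4.11 ± 0.39 without array 2 (adjusted p = 3.4e-05). Fn14ko differed from MRL/+ by -0.95 ± 1.10 (adjusted p = 0.55). Within Cy3 this difference was -0.15, and within Cy5 -1.75. In the MRL/+ Cy5 mice the Icam1 spot read 0.830 and 0.918 times the negative controls, and was not well above background. Icam1 was well above background in 3 of 4 MRL/lpr, 3 of 4 Fn14ko and 1 of 4 MRL/+ mice.

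Vcam1 binds the integrin that holds Itga4 and Itgb1 on leukocytes. It had 2 tested probes, on the minus strand of mm9, A_51_P210956 at chr3:115813216-115813275 and A_52_P520495 at chr3:115828953-115829012. The latter reads coding sequence and is shown because its fold changes against MRL/+ had the opposite sign.
Vcam1 A_52_P520495: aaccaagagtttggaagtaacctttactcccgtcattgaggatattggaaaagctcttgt
The first probe had signals of 1.75, 1.11, 2.02 and 0.875 in MRL/lpr, 1.90, 2.18, 1.55 and 2.05 in Fn14ko and 1.16, 0.363, 1.30 and 0.443 in MRL/+. All Fn14ko mice were above all MRL/+ mice, while MRL/lpr overlapped MRL/+. It was higher in Fn14ko than in MRL/+ by 1.44 ± 0.32 log2 (adjusted p = 0.016) and in MRL/lpr by 0.96 ± 0.32 (adjusted p = 0.0482, and 0.0505 with the replicate block). In the MRL/+ Cy5 mice the spot read 159 and 116, 0.760 and 0.575 times the negative controls, and was not well above background. Without these mice the differences were 0.79 ± 0.35 and 0.31 ± 0.35 (adjusted p = 0.277 and 0.574), and within Cy3 0.48 and 0.62. The MRL/lpr call was lost when any of MRL/lpr replicates 1, 2 and 3 or MRL/+ replicates 2, 3 and 4 was left out, and the Fn14ko call without Fn14ko replicate 4 or MRL/+ replicate 3. MRL/lpr differed from Fn14ko by -0.48 ± 0.32 (adjusted p = 0.347).

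The coding-sequence probe of Vcam1 had signals of 0.127, 0.184, 0.134 and 0.162 in MRL/lpr, 0.150, 0.185, 0.107 and 0.271 in Fn14ko and 0.107, 0.295, 0.127 and 0.565 in MRL/+. The groups overlapped in all comparisons, and the spot was well above background in 2 of 4 MRL/lpr, 4 of 4 Fn14ko and 2 of 4 MRL/+ mice. Its fold changes against MRL/+ were -0.54 ± 0.33 in MRL/lpr and -0.37 ± 0.33 in Fn14ko (adjusted p = 0.231 and 0.415), of the opposite sign to those of the first probe. Within Cy3 they were 0.16 and 0.12. In the MRL/+ Cy5 mice this spot read 0.662 and 0.725 times the negative controls, and was not well above background. MRL/lpr differed from Fn14ko by -0.17 ± 0.33 (adjusted p = 0.773).

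The other genes of the vasculature were described through 7 lists, each gene by its tested probe with the highest mean signal; 122 genes were tested. Of all 17302 genes taken this way, 10.6% were higher and 14.8% lower in MRL/lpr than in MRL/+, 5.79% higher and 8.74% lower in Fn14ko than in MRL/+, and 7.17% higher and 6.61% lower in MRL/lpr than in Fn14ko, with median log2 fold changes of -0.06, -0.07 and -0.01. Of the 122 genes, 20 lay where the surrounding spots were in some mouse at least 3 times those of the same-dye mice of the other groups, 17 of them in MRL/lpr.

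Of 30 tested endothelial identity genes, 10 were higher and 2 lower in MRL/lpr than in MRL/+ (median 0.55), 5 higher and 1 lower in Fn14ko (median 0.20), and 2 higher and 1 lower in MRL/lpr than in Fn14ko (median 0.23). The list includes Cldn5, Cdh5, Pecam1 and Vwf, and without the 7 genes on bright areas the first count was 8 higher and 0 lower of 23. Without the 2 Cy5 MRL/+ mice it was 12 higher and 1 lower of 30, and the Fn14ko count 1 higher and 0 lower. Without MRL/lpr array 2 it was 7 higher and 0 lower. Robo4, an endothelial guidance receptor, had signals of 2.21 to 2.44 in MRL/lpr, 1.32 to 1.77 in Fn14ko and 0.929 to 1.23 in MRL/+, with no overlap between any pair of groups. It was higher in MRL/lpr than in MRL/+ by 1.13 ± 0.14 log2 (adjusted p = 0.000261) and than in Fn14ko by 0.66 ± 0.14 (adjusted p = 0.00935). Cd34, a surface sialomucin, was higher in MRL/lpr than in MRL/+ by 1.38 ± 0.27 (adjusted p = 0.00352), and Ly6a by 1.42 ± 0.29 (adjusted p = 0.0045). In Fn14ko against MRL/+, Ly6c1 was higher by 1.43 ± 0.28 (adjusted p = 0.00949) and Ly6a by 1.33 ± 0.29 (adjusted p = 0.0133). Between the lpr groups, Eng, a co-receptor of the TGF-beta family, was higher in MRL/lpr by 0.69 ± 0.17 (adjusted p = 0.0228), and Kdr, a VEGF receptor, lower (-0.84 ± 0.22, adjusted p = 0.0268); the surroundings of the Kdr spot reached 6.28 times those of the other groups in MRL/lpr replicate 3.

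Of 17 tested junction genes, 5 were higher and 0 lower in MRL/lpr than in MRL/+ (median 0.29), 6 higher and 2 lower in Fn14ko than in MRL/+ (median 0.19), and 1, Ocln, was higher between the lpr groups (median -0.09). Besides Tjp1, Ctnnd1, a catenin that binds cadherins, was higher in MRL/lpr by 0.87 ± 0.22 (adjusted p = 0.0148) and Lsr, a receptor found where several epithelial or endothelial cells meet, by 0.79 ± 0.19 (adjusted p = 0.0118). Cldn12, a claudin, was higher in Fn14ko than in MRL/+ by 1.05 ± 0.20 (adjusted p = 0.00831); its signals in MRL/+ were 1.51 and 1.67 in Cy3 and 0.795 and 0.619 in Cy5, a split like that of Tjp1. Without the 2 Cy5 MRL/+ mice the counts were 2 higher in MRL/lpr and 0 in Fn14ko, and without MRL/lpr array 1 or 2 the first count was 3 higher and 0 lower or 5 higher and 3 lower. Of 23 tested transporters, 7 were higher and 1 lower in MRL/lpr than in MRL/+ (median 0.23) and 3 higher and 0 lower in Fn14ko (median 0.34), or 5 and 1 higher and 0 lower without those mice. Abcc5, an efflux pump, was higher by 1.17 ± 0.14 in MRL/lpr and 0.65 ± 0.14 in Fn14ko than in MRL/+ (adjusted p = 0.000201 and 0.0122), and by 0.52 ± 0.14 in MRL/lpr than in Fn14ko (adjusted p = 0.0264). Slco1a4, an organic anion carrier, was higher in both lpr groups, by 1.05 ± 0.14 and 0.89 ± 0.14 (adjusted p = 0.000484 and 0.00337). Slc7a1, a carrier of basic amino acids, was higher in MRL/lpr by 0.90 ± 0.17 (adjusted p = 0.00352) and Abcg2, an efflux pump, in Fn14ko by 0.50 ± 0.14 (adjusted p = 0.0348). Slc2a1, of the same list, passed in none of the comparisons.

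Of 21 tested adhesion and activation genes, 2 were higher and 2 lower in MRL/lpr than in MRL/+ (median -0.17), 2 higher and 0 lower in Fn14ko (median -0.12), and 1 higher and 2 lower in MRL/lpr than in Fn14ko (median -0.04). The integrin chains that Vcam1 binds were lower in MRL/lpr than in MRL/+, Itga4 by 0.65 (log2 fold change -0.65 ± 0.18, adjusted p = 0.0211) and Itgb1 by 0.63 (-0.63 ± 0.16, adjusted p = 0.0163). The spots around Itga4 and Itgb1 had median log2 differences of -0.44 and -0.55 in the same comparison. Those around the tested member probes ran from -0.63 (Vwf) to 1.57 (Icam1) there, with -0.47 around Cldn5 and -0.51 around Slc2a1. The spots around Itgb1 reached 3.77 times the other groups in Fn14ko replicate 4, a mouse outside this comparison. The part of the surroundings in the Itga4 and Itgb1 results was not tested. Both genes are also expressed by cells other than leukocytes. Without MRL/lpr array 1, 0 of these 21 genes passed in MRL/lpr against MRL/+, and without the 2 Cy5 MRL/+ mice 0 passed in Fn14ko. Of 15 genes of Wnt and Norrin signalling, which maintains barrier properties in brain endothelium, 1 was higher and 5 lower in MRL/lpr than in MRL/+ (median -0.17), 2 higher and 2 lower in Fn14ko (median -0.39) and 1 higher and 2 lower between the lpr groups (median 0.20). Without the 2 Cy5 MRL/+ mice the first count was 2 higher and 2 lower and the Fn14ko count 0, and without MRL/lpr array 1 the first was 2 higher and 1 lower. Lrp5, a Wnt co-receptor, had signals of 3.18 to 5.30 in MRL/lpr, 7.01 to 12.4 in Fn14ko and 7.24 to 10.2 in MRL/+, and was lower in MRL/lpr than in MRL/+ (-1.13 ± 0.19, adjusted p = 0.00173) and than in Fn14ko (-1.15 ± 0.19, adjusted p = 0.00286). Ndp, which encodes the ligand Norrin, was higher in MRL/lpr and Fn14ko than in MRL/+ by 0.67 ± 0.14 and 0.45 ± 0.14 (adjusted p = 0.0054 and 0.0494). Its co-receptor component Tspan12 was higher in Fn14ko by 0.96 ± 0.23 (adjusted p = 0.0192). Lef1, a transcription factor of the pathway, was lower in Fn14ko than in MRL/+ (-0.72 ± 0.19, adjusted p = 0.0263) and than in MRL/lpr, by 0.63 ± 0.19 (adjusted p = 0.0443). The spots around Lef1 had a median log2 difference of -0.87 in Fn14ko against MRL/+, larger than that of Lef1 itself. Between MRL/lpr and Fn14ko it was 0.07. The part of the surroundings in the Lef1 result was not tested.

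Of 5 tested genes of caveolae and transcytosis, 2 were higher in MRL/lpr and 2 in Fn14ko than in MRL/+, with 0 lower (medians 0.39 and 0.36), and 0 passed between the lpr groups (median -0.22). Without MRL/lpr array 1 or without array 2, 1 was higher in MRL/lpr, and without the 2 Cy5 MRL/+ mice 1 was higher in Fn14ko. Cav2, a caveolin, was higher in MRL/lpr by 0.68 ± 0.14 (adjusted p = 0.00437), Cavin1 in Fn14ko by 0.60 ± 0.16 (adjusted p = 0.0281), and Cavin2 in both, by 0.42 ± 0.13 and 0.68 ± 0.13 (adjusted p = 0.039 and 0.00952). Of 14 mural cell genes, which mark the pericytes and smooth muscle around the endothelium, 5 were higher and 2 lower in MRL/lpr than in MRL/+ (median 0.55), 5 higher and 1 lower in Fn14ko (median 0.32), and 0 passed between the lpr groups (median -0.03). Without the 2 Cy5 MRL/+ mice these counts were 2 higher and 1 lower, and 0 and 0. Without MRL/lpr array 1, 1 was higher and 0 lower in MRL/lpr than in MRL/+. Vtn, a matrix protein made by pericytes, was higher in MRL/lpr by 0.98 ± 0.25 and in Fn14ko by 1.17 ± 0.25 (adjusted p = 0.0156 and 0.0143), Abcc9, a channel subunit, in MRL/lpr by 0.67 ± 0.18 (adjusted p = 0.0204), and Pdgfrb, the PDGF receptor of pericytes, in Fn14ko by 0.55 ± 0.14 (adjusted p = 0.0254). Of the smooth muscle genes, Acta2 was higher in Fn14ko by 1.14 ± 0.30 (adjusted p = 0.03), whereas Tagln was lower in MRL/lpr (-1.29 ± 0.37, adjusted p = 0.0255). Within Cy3 the Fn14ko differences were 0.35 for Acta2, 0.47 for Vtn and 0.40 for Pdgfrb, and the Tagln difference in MRL/lpr was -1.34. The Acta2 spot was not well above background in the MRL/+ Cy5 mice.

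**Figure D5:**
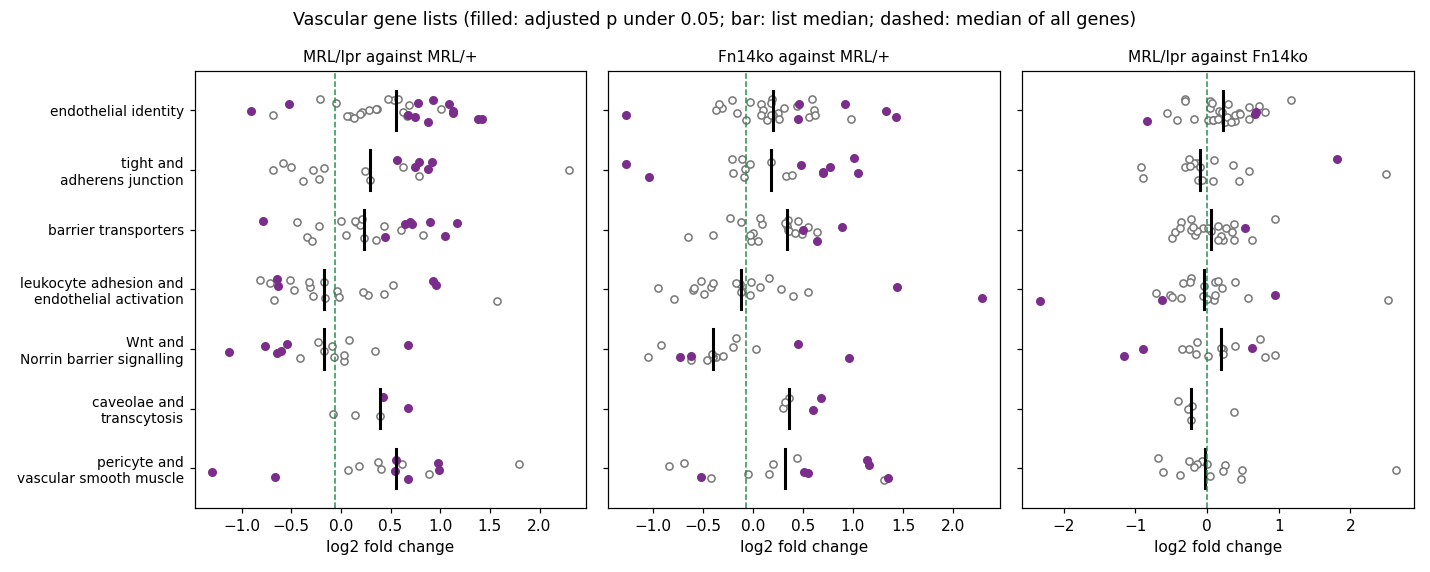
Log2 fold change (x axis) of each tested gene of the 7 vascular lists (y axis) in the 3 comparisons; filled points have an adjusted p under 0.05, black bars are list medians and the dashed line is the median of all genes. In MRL/lpr against MRL/+ the endothelial identity and mural cell medians are both 0.55 against -0.06 for all genes, and between the lpr groups 0 mural cell genes pass.

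Markers of other cell types moved beside these lists. Of 6 blood genes, 4 were higher and 0 lower in MRL/lpr than in MRL/+ and 3 higher and 0 lower than in Fn14ko, and 1 was lower and 0 higher in Fn14ko than in MRL/+, with summed signals of 243 to 711 in MRL/lpr, 92.2 to 236 in Fn14ko and 101 to 124 in MRL/+; 1 of the 6 lay on a bright area. Of 8 neuron genes, 4 were lower in MRL/lpr than in MRL/+, 3 lower in MRL/lpr than in Fn14ko and 1 lower in Fn14ko than in MRL/+, with 0 higher in any comparison and summed signals of 143 to 162 in MRL/lpr, 175 to 194 in Fn14ko and 195 to 223 in MRL/+. Of 9 choroid plexus genes, 1 was lower in MRL/lpr than in MRL/+ and 4 than in Fn14ko, and the summed signal ranged from 8.03 to 105, 15.4 to 192 and 22.8 to 273. Of 8 astrocyte genes 0 were higher and 1 lower in each lpr group against MRL/+, and of 10 microglia genes 1 was higher and 0 lower in MRL/lpr against MRL/+ and 0 passed in Fn14ko, with overlapping sums in both lists. Of 6 meningeal fibroblast genes 1 was lower in MRL/lpr against MRL/+ and 2 against Fn14ko, and of 4 tested lymphocyte genes 1 was lower in Fn14ko than in MRL/+ and 0 passed in the other comparisons. The part of these cell types in the vascular differences was not tested.

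After group means and dye were removed, Pearson's r over the 12 mice between the 10 genes' brightest probes had a median of -0.03 over 45 pairs, from -0.78 (Pecam1 and Vwf) to 0.78 (Tjp1 and Vcam1). The 5 genes or transcripts most like Cldn5 of 17301 were Ddx50, ENSMUST00000095940.3, Zfp64, ENSMUST00000181799.1 and Fam181b, with r of 0.92 to 0.94, against a median of -0.03 for all genes. The nearest member, Vwf, ranked 3249th (r = 0.29), and Cdh5 and Pecam1 ranked 6229th and 10796th (r = 0.08 and -0.11). These values are descriptions over 12 mice that share 6 arrays in pairs. The dye difference removed was common to the groups. A split by dye within MRL/+ alone, as for Tjp1 and Vcam1, therefore remains in them.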

How the data were processed

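RNA from the cortex of 12 mice was hybridised to 6 two-colour Agilent mouse arrays with mm9 coordinates, 1 mouse per dye. The deposited foreground and local background intensity of each spot is raw scanner output that the authors extracted with Agilent Feature Extraction (12.1.0.3 per the file headers). The spot flags used here (control type, uneven, outlier, well above background) are a score of 0 or 1, or of the control type, set by the same program per the file headers. The scanner's processed signal was used only as an alternative.

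Mean foreground was corrected with normexp (limma 3.58.1, R 4.3.3; offset 50), with local background capped at 5 times the channel median, and divided by the channel's median over retained spots. The cap was chosen after the data were seen, because single extreme background spots raised the fitted noise, and it gave more calls than the background as deposited (5835 against 3361 probes in MRL/lpr against MRL/+, 3522 against 245 in Fn14ko against MRL/+ and 2938 against 903 between the lpr groups). Spots marked uneven or outlier, or under 2 times local background, in any of the 12 mice were removed, leaving 24255 of 43020 non-control spots and 22419 probes. Group and dye were fitted with limma, with the array as a random block (correlation 0.0413) and all 12 mice, and p-values were adjusted by Benjamini-Hochberg over all 22419 probes. The threshold was 0.05. Nothing in the labels says more of the mice than their group and number, so p-values measure the spread between these samples, and 4 mice a group limit the precision. The exact permutation test has 70 arrangements and cannot go below 0.0286. In data simulated for MRL/lpr against MRL/+ on 22419 probes, 200 were changed and the array correlation was set above 0.0413. The fit recovered 34% of probes changed by 1 log2 and 75% of those changed by 2. In the real comparison 26% of probes passed, so these shares need not hold there.

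Replicate numbers were checked as pairs: deviations from group means of mice with the same number correlated in all 12 pairs (r of 0.1004 to 0.4125). Of the 12 mice, 7 correlated best with their own number. The numbers come from the labels and also mark dye and array position, so these correlations cannot tell pairs of mice from dye or position. Values with the replicate block stand beside results whose call it changed. All members are named, with Tnfrsf12a and Fas, which were chosen to check the labels, and the 5 genes most correlated with Cldn5. Up to 3 genes per list and comparison are also named. These had the largest absolute log2 fold change among those past the threshold whose groups did not overlap. A gene that this rule also selects is not reported here. The surroundings of spots, the capped background and the fits without the MRL/+ Cy5 mice or without an MRL/lpr array were added after the data were seen. The members and lists were chosen with earlier results of these data known.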

Additional observations from a re-analysis of the deposited data

Results flagged for a closer look

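One of 39 sets of 4 mice, each a member probe in a group, had a mouse far from the others; chance marks about 1 in 20 such sets. The Vwf signal (A_51_P103397) of Fn14ko replicate 4 was 8.08, against 2.47 to 2.99 in the other 3 Fn14ko mice, a gap of 0.908 of the group's range. Without this mouse the fold change of Fn14ko against MRL/+ was 0.58 (limma adjusted p = 0.0532), against 0.98 with it (adjusted p = 0.0535); both miss the threshold.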

How the results depend on the processing

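The 33 member fold changes were recomputed under 28 alternatives, some of which could not include a probe or comparison, which gave 768 values. Of these, 671 stayed on the same side of the threshold, 643 with the same sign and 28, called in neither fit, with the other sign. A further 62 were no longer called, 34 were newly called and 1 was called with the opposite sign: Vcam1 A_52_P520495 in Fn14ko against MRL/+ became 0.99 with 1 value per gene, which averages it with the other Vcam1 probe. In the order MRL/lpr against MRL/+, Fn14ko against MRL/+ and MRL/lpr against Fn14ko, the main counts were 3, 4 and 1 member probes, 5835, 3522 and 2938 of all probes, and 44, 30 and 11 of the 122 list genes. Leaving out 1 mouse gave 1 to 5, 1 to 7 and 1 to 2 member probes, 3085 to 8374, 896 to 8509 and 1679 to 2658 of all probes, and 22 to 52, 9 to 44 and 6 to 12 list genes; both lowest counts against MRL/+ came without MRL/+ replicate 3 and both highest without MRL/+ replicate 1. With the local background as deposited, member counts were 2, 0 and 0, all probes 3361, 245 and 903, and list genes 28, 4 and 3. Without the 2 Cy5 MRL/+ mice, members were 0, 0 and 2, and in Fn14ko against MRL/+ 529 probes and 3 list genes passed. With Cy3 mice only, members were 0, 1 and 1, all probes 3557, 351 and 508, and list genes 28, 1 and 2. With spots well above background in all 12 mice, only 3 member probes remained and 0 passed in each comparison, with 2049, 904 and 1122 of 8091 probes and 17, 3 and 5 of 41 list genes. Without the filter on dim spots 5 members passed in the first comparison, 15796, 7776 and 4624 probes (2754, 4158 and 980 of them higher) and, in the second, 52 list genes; every log2 fold change shifted by 0.17, 0.58 and -0.41. The scanner's processed signal gave 1 member in each comparison with MRL/+, and in the second 1410 probes (160 higher) and 14 list genes. Loess and quantile scaling gave 2 members, 2164 probes and 18 list genes in the second, and 1 value per gene 2279 genes. Without MRL/lpr array 1, 3755 probes and 27 list genes passed in the first comparison, and without array 2, 2 members and 17 list genes in the third. The methods' t-test gave 0, 0 and 0 members after Benjamini-Hochberg adjustment (4, 4 and 1 unadjusted), 1062, 48 and 693 probes and 9, 0 and 2 list genes. The replicate block gave 5, 5 and 1 member probes. Where no construction is named, the cause was not tested.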

Other observations

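Fn14ko replicate 4 was also the highest Fn14ko mouse for the mural cell genes Vtn, Acta2 and Tagln. Vtn signals were 9.47, 16.5, 11.6 and 23.0 in Fn14ko replicates 1 to 4, Acta2 signals 1.48, 3.58, 1.93 and 4.38, and Tagln signals 2.08, 5.29, 1.90 and 7.02. For these 3 genes both Cy5 mice lay above both Cy3 mice. Pdgfrb had the same order by a narrow margin, with signals of 1.517, 1.958, 1.938 and 1.962. Abcc9 did not share it: its signals were 0.626, 0.542, 0.455 and 0.405, with replicate 4 the lowest. The genes were chosen after their values were seen, and no cause was tested.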
